A study of Mus musculus with 12 samples.

Results

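The genes described here are the 34 nuclear genes for complexes II to IV of the mitochondrial respiratory chain and their assembly, measured by RNA-seq in mouse kidney. They comprise 4 subunits of succinate dehydrogenase (complex II), 9 subunits of the cytochrome bc1 complex (complex III), the electron carrier cytochrome c, 13 genes of cytochrome c oxidase (complex IV) and 7 factors that assemble the oxidase. They were chosen by gene symbol, with earlier results of these data known, and all 34 were found among the 21899 genes of the deposited table. In all, 33 of them reached an FPKM (fragments per kilobase of exon, scaled to the library's total of fragments) of at least 0.3 in at least 3 libraries and were tested. Sco2, which delivers copper to the oxidase, was listed at 0 in all 12 libraries and was not tested. In the annotation used here 91.8% of its exon bases are shared with Ncaph2 and Tymp.

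The study sequenced 12 kidney libraries in 4 groups of 3. The db/m-veh group is the normal control, from db/m mice, the lean relatives of db/db mice, with the treatment label veh. The db/db-veh group is the diabetic nephropathy group, from db/db mice, which lack a working leptin receptor, with the same treatment label. The db/m-GABP-OE group is labelled as overexpressing GABP in db/m mice, and the db/db-GABP-KD group as having GABP knocked down in db/db mice. GABP is a transcription factor of the ETS family, built from a DNA-binding subunit (Gabpa) and an activating subunit (Gabpb1 or Gabpb2). How its level was altered, in which cells, and how old the mice were are not given in these sources. Kidneys of 6 mice entered each group and 3 tissues were mixed for each extraction, per the labels' protocols. The labels do not say whether the 3 libraries of a group hold separate pools, so p-values measure the spread between these libraries, which may be technical.

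Complex II passes electrons from succinate to ubiquinone and belongs to the citric acid cycle as well. Complex III moves them on to cytochrome c, and complex IV passes them to oxygen, while both pump protons. The catalytic cores of complexes III and IV are partly encoded in mitochondrial DNA, and the nuclear subunits surround them, whereas complex II is wholly nuclear. The proximal tubule, which fills most of the kidney cortex, depends on oxidative phosphorylation to power reabsorption.

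The libraries held 6.78 to 9.70 M fragments, recovered from the deposited values and exon lengths. The 13 mitochondrially encoded mRNAs took from 47.9% of fragments in db/db-GABP-KD 1 to 86.0% in db/db-veh 2, and every nuclear gene's FPKM is relative to that total. Values are as deposited unless a sentence says otherwise. Counts of members, their medians and directions that turn are also given after rescaling by the median of ratios over 5884 genes, which left the all-gene median log2 difference at 0.011, 0.044 and 0.0023 in the 3 comparisons below. Scale factors ran from 0.529 in db/db-veh 2 to 1.71 in db/db-GABP-KD 1, and these libraries often hold the lowest and highest values. All 12 proximal tubule markers were above 0 in every group.

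Gabpa was read first as a check on the labels. Its FPKM was 1.79, 2.32 and 2.54 in db/m-veh, 2.20, 2.17 and 1.63 in db/db-veh, 3.45, 3.35 and 3.71 in db/m-GABP-OE and 6.62, 2.66 and 3.40 in db/db-GABP-KD. The mean was 1.58 times the db/m-veh mean with the overexpression label and 2.12 times the db/db-veh mean with the knockdown label, with no overlap in either case (exact permutation test, two-sided, p = 0.1 for each, the smallest that 3 against 3 allows). After the median of ratios these ratios were 1.16 and 1.24 (exact p = 0.4 for each). The libraries labelled db/db-GABP-KD thus did not hold less Gabpa mRNA, and directions in that comparison are those of the labels only. Gabpb1 stood at 1.78 and 1.85 times its control mean with the overexpression and knockdown labels (exact p = 0.1 and 0.6), and Gabpb2 at 1.55 and 1.75 times (exact p = 0.2 and 0.3). Rescaled ratios were 1.32 and 1.09 for Gabpb1 (exact p = 0.2 and 0.9) and 1.17 and 1.27 for Gabpb2 (exact p = 0.5 and 0.6).

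Because GABP is a known activator of oxidase genes, promoters were read from RefSeq (GRCm38.p6), from 250 bases before to 50 bases after each annotated start, on the gene's strand. A promoter was found for 26 of the 34 genes. The ETS motif of GABP was searched as CCGGAAG, and its shorter core as CGGAAG, on both strands, so that every CCGGAAG match is also a CGGAAG match. CCGGAAG was found in 11 of the 26 promoters (42.3%) and in 8.86% of all 32851 promoters in the table. CGGAAG was found in 14 of the 26 (53.8%) and in 16.9% of all. The 32851 promoters belong to 27025 genes and were not limited to genes measured in kidney or matched for base content. Whether the higher shares are particular to these members was not tested. The 11 were those of Sdhb, Sdhd, Uqcrh, Uqcr11, Cox6a1, Cox6b1, Cox8a, Cox10, Cox15, Sco1 and Surf1, and their matches began between 66 bases before and 32 bases after the start, Cox8a holding a pair of them. A match is a description of the letters, not a measured binding site.

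The promoters of Cox5b, a textbook GABP target, and of Uqcr11, Cox6a1 and Uqcr10 are shown. The last 3 are among the 4 members with the largest fitted differences under either GABP label, and the set includes windows with and without the motif. Capitals mark CCGGAAG or CGGAAG, or their reverse complements CTTCCGG and CTTCCG. The windows are chr1:36691237-36691536 (plus strand) for Cox5b, chr5:115348909-115349208 (minus strand) for Cox6a1, chr10:80406772-80407071 (minus strand) for Uqcr11 and chr11:4704295-4704594 (minus strand) for Uqcr10.
Cox5b: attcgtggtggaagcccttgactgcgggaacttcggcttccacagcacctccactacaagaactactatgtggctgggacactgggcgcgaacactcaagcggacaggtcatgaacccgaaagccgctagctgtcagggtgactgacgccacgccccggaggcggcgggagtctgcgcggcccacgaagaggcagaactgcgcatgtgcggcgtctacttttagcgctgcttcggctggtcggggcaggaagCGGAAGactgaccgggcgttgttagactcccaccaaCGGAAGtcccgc
Cox6a1: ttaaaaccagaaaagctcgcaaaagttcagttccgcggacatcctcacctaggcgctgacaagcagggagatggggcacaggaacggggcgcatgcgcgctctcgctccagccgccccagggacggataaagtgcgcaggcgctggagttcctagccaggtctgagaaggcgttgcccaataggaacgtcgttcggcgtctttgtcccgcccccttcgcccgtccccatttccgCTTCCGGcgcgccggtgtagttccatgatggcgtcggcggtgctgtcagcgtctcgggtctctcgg
Uqcr11: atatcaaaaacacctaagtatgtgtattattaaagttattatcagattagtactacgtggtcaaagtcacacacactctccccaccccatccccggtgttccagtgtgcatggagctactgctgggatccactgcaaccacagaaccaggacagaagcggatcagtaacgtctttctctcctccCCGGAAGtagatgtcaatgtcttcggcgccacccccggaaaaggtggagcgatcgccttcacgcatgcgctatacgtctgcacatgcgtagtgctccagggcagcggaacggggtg
Uqcr10: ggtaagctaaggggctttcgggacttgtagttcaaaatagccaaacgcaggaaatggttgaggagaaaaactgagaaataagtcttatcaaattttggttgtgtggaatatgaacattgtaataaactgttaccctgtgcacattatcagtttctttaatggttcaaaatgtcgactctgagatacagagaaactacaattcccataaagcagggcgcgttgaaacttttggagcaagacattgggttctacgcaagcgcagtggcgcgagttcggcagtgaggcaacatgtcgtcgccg
The Cox5b window holds 2 copies of the shorter core, those of Cox6a1 and Uqcr11 hold 1 copy of the longer motif each, and these letters are not in the Uqcr10 window. Cox4i1 and Uqcrq, which would have been shown by the same rule, are named only.

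Fitted differences were set side by side for members with and without CCGGAAG. Between db/db-veh and db/m-veh the median log2 difference was -0.83 over the 11 members with the motif and -0.85 over the 14 tested members whose window lacked it. With the overexpression label the medians were 0.33 and 0.47, and with the knockdown label 0.67 and 0.87. After rescaling they were -0.63 and -0.54 in the first case, -0.11 and 0.036 with the overexpression label and 0.26 and 0.36 with the knockdown label.

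Levels differed widely between the genes, compared per length as FPKM. That length counts all annotated exon bases, so the ranks depend on the annotation. Cox6c and Cox8a, for example, held 11005 and 12340 fragments over exon lengths of 3567 and 619 bases. The most abundant by median over the 12 libraries were Cox6a1, the ubiquitous form of oxidase subunit 6A, at 188 and Cox8a, the small ubiquitous subunit 8A, at 165. Next came Cox6b1 at 109, whose product faces cytochrome c, and Uqcr10 at 109, a small bc1 subunit. Further bc1 subunits ran from Uqcrq at 79.4 and Uqcr11 at 75.6 through Uqcrfs1, the Rieske iron-sulfur protein, at 60.1, Uqcrb at 51.6, Cyc1, cytochrome c1, at 38.1, Uqcrh, the hinge protein, at 34.4 and the core proteins Uqcrc1 at 27.2 and Uqcrc2 at 16.5. The remaining oxidase genes ran from Cox5b at 65.9, Cox4i1 at 56.5, Cox7b at 42.6, Cox7a2 at 40.2, Ndufa4 at 37.2 and Cox7c at 34.2 down to Cox7a2l, which takes part in joining complexes III and IV, at 23.9, Cox6c at 22.1, Cox5a at 3.08 and Cox7a1, the heart and muscle form, at 2.95.

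Complex II genes lay in the middle of this range, with Sdhb, the iron-sulfur subunit, at a median FPKM of 59.5, Sdhd and Sdhc, the membrane anchors, at 32.1 and 21.1, and Sdha, the flavoprotein, at 22.4. Cytochrome c (Cycs) had a median of 27.3. Assembly factors were far lower. Surf1 stood at 7.88, Cox15 and Cox10, which make the heme of the oxidase, at 2.95 and 2.55, and the copper factors Cox11, Sco1 and Cox17 at 1.37, 0.844 and 0.306. Over all 12 libraries Cox11 rested on 195 fragments, Cox17 on 156 and Cox7a1 on 178, against 21063 for Cox6a1.

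Some counts could be shared with other genes, since the counting settings are not stated by the sources. Over 10% of exon bases were shared with a neighbour for Cox11 (48.3%, Tom1l1), Uqcrc2 (19.7%, Pdzd9) and Cox5a (12.8%, Gm26631), besides Sco2. Near-identical copies elsewhere in the genome (at least 95% identity over at least 200 bases) exist for 7 members, and 2 of these copies had values of their own in the table. They were Gm11273 for Cox5b, with a mean FPKM of 36.1, and Gm10053 for Cycs, with a mean of 6.22, so the levels of Cox5b and Cycs are uncertain to that extent.

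**Figure D1:**
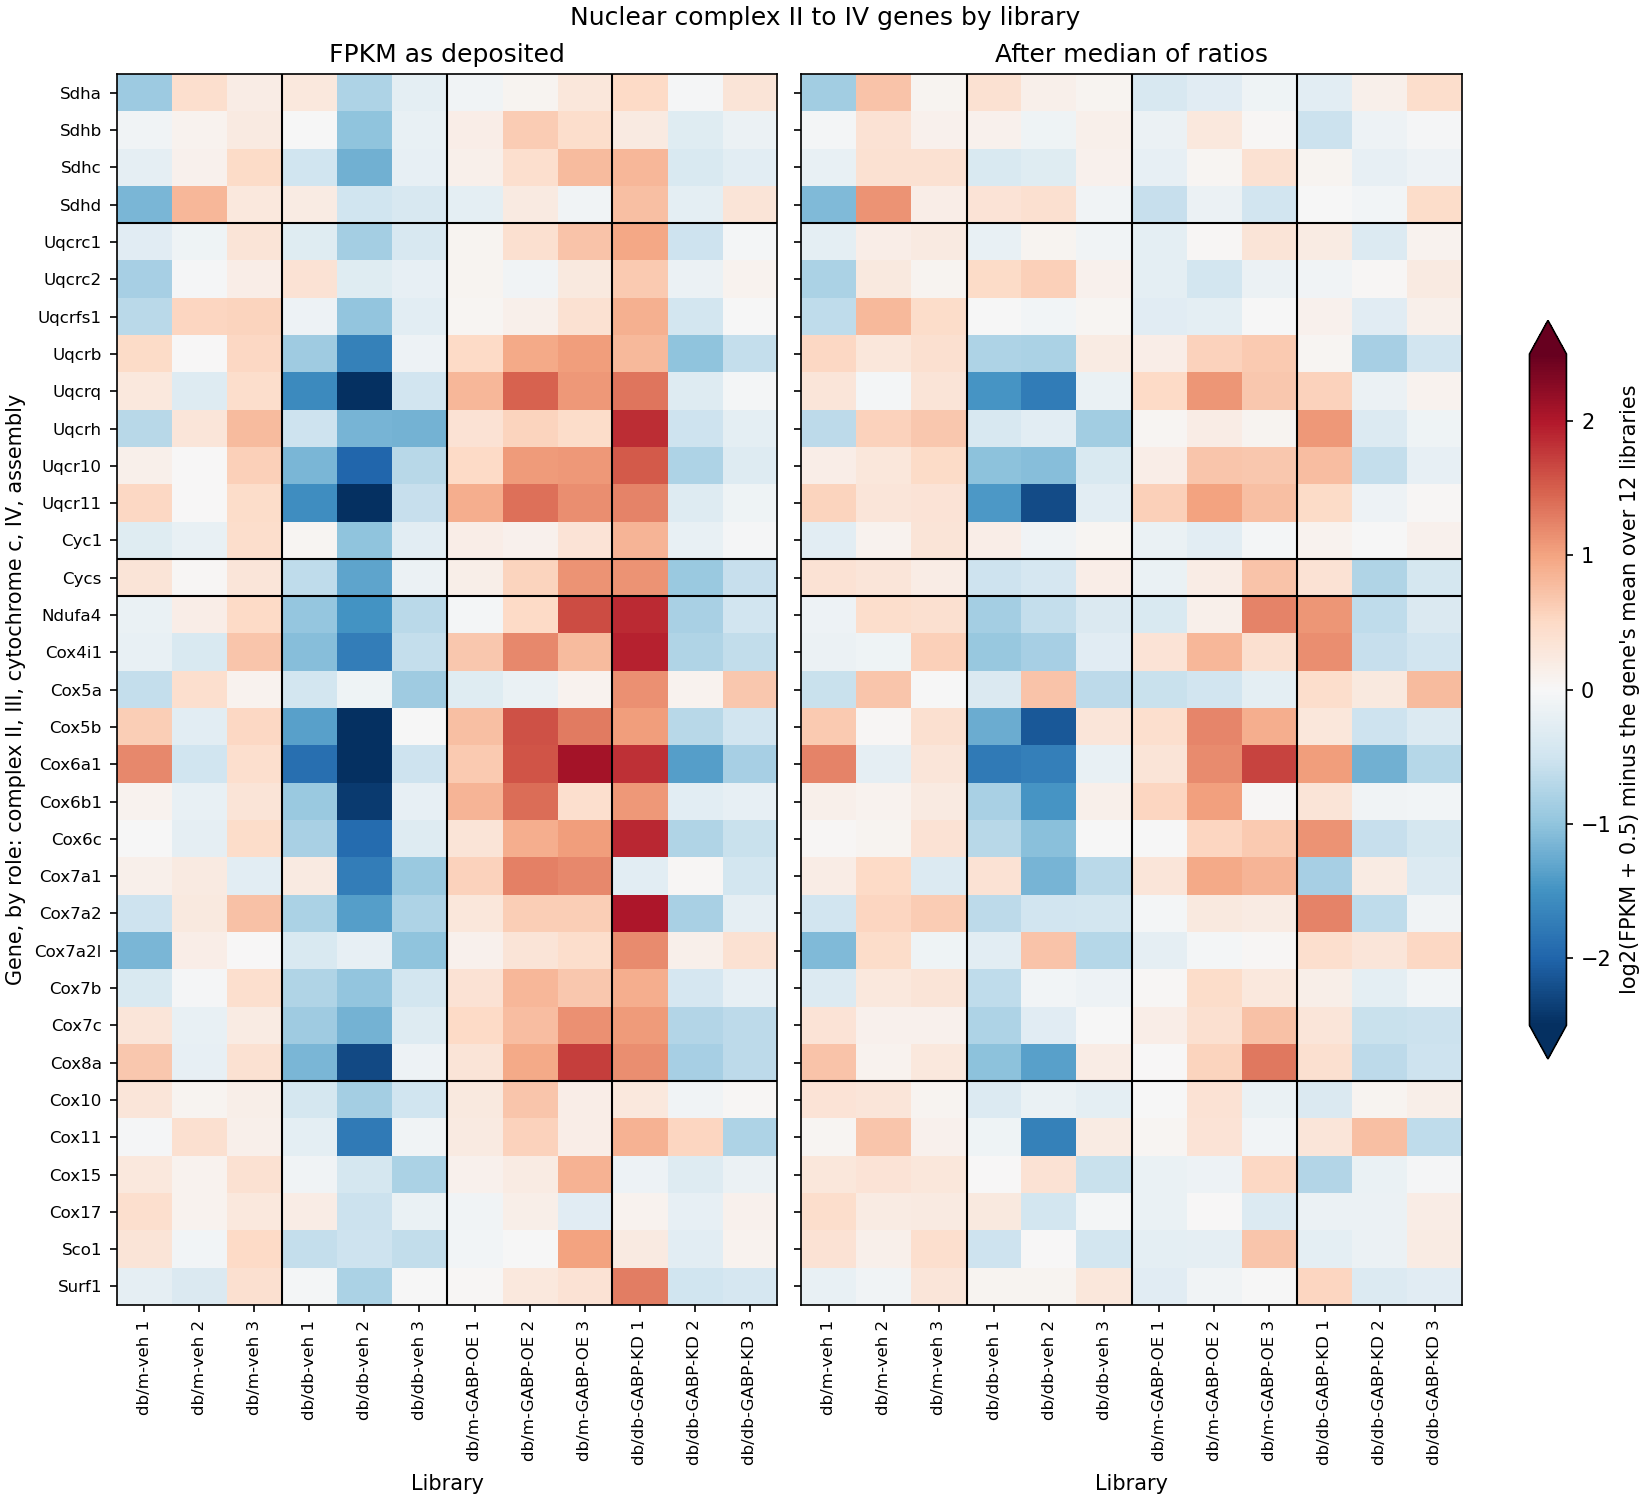
Each row is 1 of the 33 genes above 0 and each column 1 library; colour is log2(FPKM + 0.5) minus the gene's mean over the 12 libraries, as deposited (left) and after the median of ratios (right), with colours saturating at the ends of the scale. The column of db/db-veh 2 is the lowest for 25 of the 33 genes as deposited and for 10 after rescaling, and that of db/db-GABP-KD 1 the highest for 18 and for 6.

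The spread over libraries differed between the genes. The highest library was 26.4 times the lowest for Cox6a1, 25.8 times for Cox5b, 24.3 times for Uqcr11 and 18.1 times for Uqcrq. It was 2.72 times the lowest for Sdha and 3.18 times for Sdhb. Rescaled, the 6 ranges were 11.01, 10.5, 9.84 and 7.33 times for the former genes and 3.07 and 1.89 times for the latter. The contrast did not extend to every small subunit, since after rescaling the ranges of Cox7c at 2.89 times, Uqcrb at 2.82 times and Cox7b at 2.15 times lay under that of Sdha.

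The first comparison asks how diabetic kidney differed from lean kidney, both with the label veh. None of the 33 members passed the test. Even so, 32 of 33 had lower fitted values in db/db-veh, as did 74.4% of all genes, and the members' median log2 difference was -0.83, against -0.24 for all 12897 genes tested. After the median of ratios the members' median was -0.54 and 28 of 33 were lower. Complex III and IV subunits lay lowest, with medians of -1.09 and -1.14 as deposited, against -0.35 for the 4 complex II genes. After rescaling these were -0.71, -0.76 and 0.029.

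Uqcr11 (chr10:80402997-80406830, GRCm38), a small accessory subunit of the bc1 complex, had the largest difference of complex III. Its FPKM was 91.3, 64.1 and 87.2 in db/m-veh and 21.4, 6.88 and 42.4 in db/db-veh. The groups did not overlap on either scale, and db/db-veh 2 was the lowest of them. The fitted log2 difference was -2.08 ± 0.56 (SE, adjusted p = 0.245, limma), the lowest adjusted p of any member.

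Cox6a1 (chr5:115345642-115348981) led complex IV. It measured 421, 129.8 and 246 FPKM in db/m-veh and 49.4, 29.6 and 129 in db/db-veh. The highest db/db-veh library lay just under the lowest db/m-veh library, and after rescaling the groups overlapped. The log2 difference was -2.04 ± 0.74 (SE, adjusted p = 0.298, limma).

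In complex II the leading gene was Sdhc (chr1:171127165-171150603), at 18.7, 23.4 and 30.6 FPKM in db/m-veh and 15.4, 9.26 and 18.9 in db/db-veh. The groups overlapped, since db/m-veh 1 lay just under db/db-veh 3. The log2 difference was -0.75 ± 0.43 (SE, adjusted p = 0.533, limma). Sdha and Sdhd had log2 differences of -0.15 and -0.22, and after rescaling 0.22 and 0.16, on the other side of 0.

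Cycs (chr6:50562563-50566538) measured 32.4, 26.2 and 31.6 FPKM in db/m-veh and 16.4, 9.95 and 23.2 in db/db-veh, without overlap. Its log2 difference was -0.92 ± 0.51 (SE, adjusted p = 0.517, limma). Among assembly factors Cox11, which inserts copper into subunit 1, had the largest difference. It was at 1.15, 1.75 and 1.35 FPKM in db/m-veh and 0.933, 0 and 1.10 in db/db-veh, with no fragment in db/db-veh 2, and its log2 difference was -0.86 ± 0.44 (SE, adjusted p = 0.470, limma). The 3 db/db-veh libraries together held only 21 fragments of it.

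Cox5b (chr1:36691449-36693681), Uqcrq (chr11:53427922-53430831) and Uqcr10 (chr11:4701973-4704342) followed, with log2 differences of -1.75, -1.70 and -1.51. Cox8a had -1.46, Cox6b1 -1.25, Uqcrb -1.23 and Cox4i1 -1.17. Uqcrc2 was the one member with a higher fitted value, at 0.18.

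limma called 0 of 33 members, against 0.093% of all genes as deposited and 0.171% after the median of ratios, and voom also called 0. At an unadjusted p under 0.05, 11 of 33 members (33.3%) were lower, against 10.7% of all genes, and after rescaling 9 of 33 against 7.10%. The db/db-veh libraries all lay under the db/m-veh libraries for 18 of 33 members, against 14.4% of all genes, and for 11 of 33 after rescaling, against 9.03%. The members' median minus that of all genes was -0.59, and -0.56 without db/db-veh 2, the library with the lowest values.

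Cell markers were measured beside this. The summed FPKM of the 12 proximal tubule markers was 623 to 2332 in db/m-veh and 506 to 1251 in db/db-veh, with overlap, and that of the 5 endothelial markers 66.8 to 83.8 and 26.6 to 56.4, without overlap on either scale. All these markers were above 0 in both groups. The 5 red blood cell genes summed to 582 to 1187 and 134 to 330.4. Their part in the members' values was not tested. In bulk tissue, fewer cells of a type and less RNA per cell cannot be told apart.

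**Figure D2:**
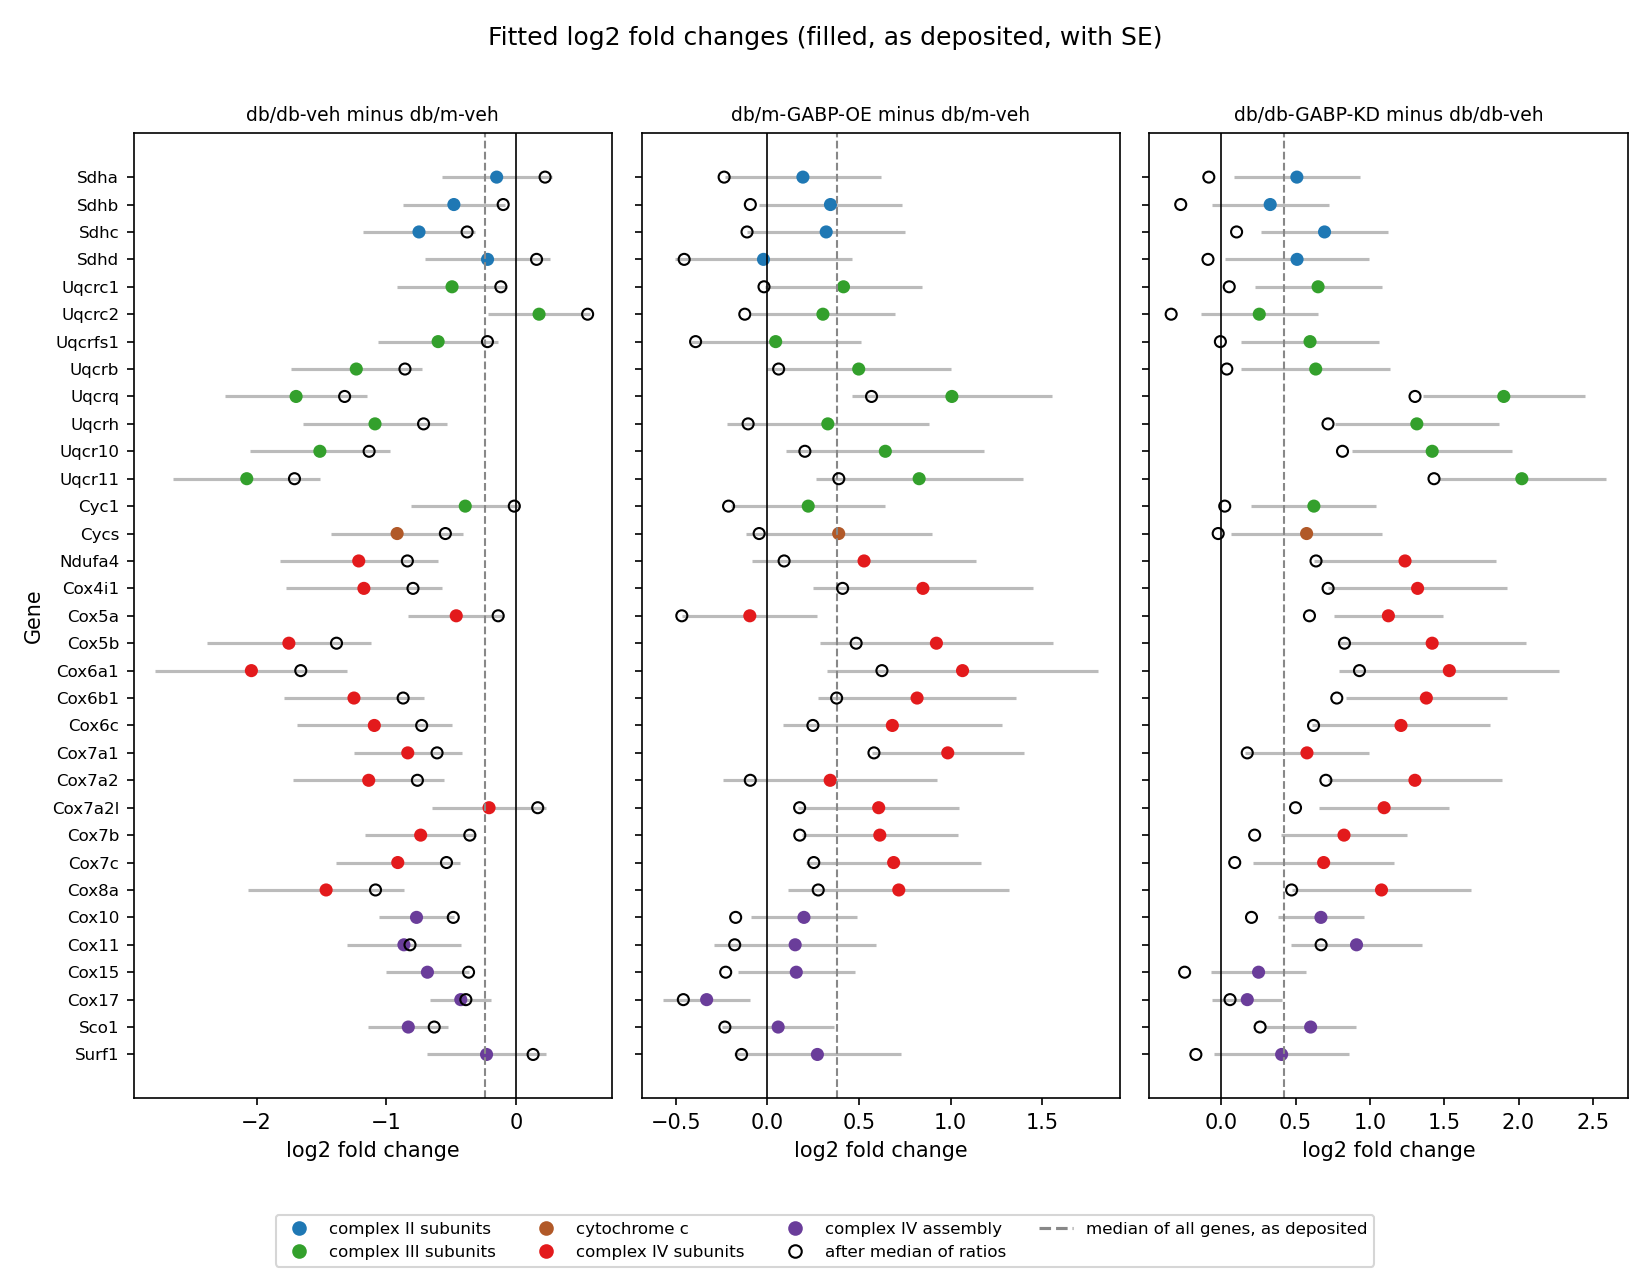
Fitted log2 difference of each of the 33 genes in the 3 comparisons, as deposited (filled, coloured by role, with the standard error) and after the median of ratios (open); the dashed line is the median of all 12897 genes as deposited. Complex III and IV genes such as Uqcr11 and Cox6a1 lie farthest left in the first panel, and genes scatter on both sides of the dashed line in the second.

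The second comparison asks what differed in lean kidney with the GABP overexpression label. The members' values followed those of all genes. Of 33 members, 30 had higher fitted values, as did 88.5% of all genes, and the members' median log2 difference was 0.39 against 0.38 for all genes. After the median of ratios it was -0.046, with 15 higher and 18 lower. The 13 oxidase subunit genes had a median of 0.69, 11 of them above the all-gene median, while 0 of 4 complex II genes and 0 of 6 assembly factors lay above it. After rescaling the median was 0.25 for the oxidase subunits, -0.17 for complex II and -0.20 for the assembly factors.

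Cox6a1 had the largest fitted difference of complex IV. It measured 289.6, 545 and 782 FPKM in db/m-GABP-OE, against 421, 129.8 and 246 in db/m-veh, and the highest db/m-veh library exceeded the lowest db/m-GABP-OE library. The log2 difference was 1.07 ± 0.74 (SE, adjusted p = 0.504, limma). Uqcrq, known as the ubiquinone-binding protein of the bc1 complex, led complex III. It was at 87.9, 58.2 and 99.3 FPKM in db/m-veh and 130.1, 205 and 156 in db/m-GABP-OE, without overlap on either scale, with a log2 difference of 1.01 ± 0.55 (SE, adjusted p = 0.402, limma).

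Sdhb (chr4:140961203-140979193) led complex II, at 54.5, 61.7 and 67.7 FPKM in db/m-veh and 65.5, 90.8 and 78.6 in db/m-GABP-OE. The lowest db/m-GABP-OE library lay inside the db/m-veh range. The log2 difference was 0.34 ± 0.39 (SE, adjusted p = 0.655, limma) and turned to -0.094 after the median of ratios. Cycs, at 28.5, 38.0 and 56.2 FPKM in db/m-GABP-OE, had a log2 difference of 0.39 ± 0.51 (SE, adjusted p = 0.691, limma), which turned to -0.046.

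Cox17, a copper chaperone of the oxidase, led the assembly factors with a lower fitted value. It measured 0.511, 0.305 and 0.408 FPKM in db/m-veh and 0.211, 0.339 and 0.121 in db/m-GABP-OE, from 61 and 36 fragments in all. The groups overlapped as deposited and did not after rescaling. The log2 difference was -0.33 ± 0.24 (SE, adjusted p = 0.515, limma). Cox7a1 (chr7:30184144-30186078) had the lowest adjusted p of the members. It stood at 3.07, 3.29 and 2.20 FPKM in db/m-veh and 4.35, 7.32 and 6.96 in db/m-GABP-OE, without overlap as deposited but with overlap after rescaling, with a log2 difference of 0.98 ± 0.42 (SE, adjusted p = 0.270, limma). It rested on 38 and 91 fragments.

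limma called 0 of 33 members, against 1.9% of all genes as deposited and 0.209% after the median of ratios, and voom also called 0. At an unadjusted p under 0.05, 1 member (Cox7a1) was higher as deposited, against 14.5% of all genes, and 0 after rescaling, against 5.51%. All 3 db/m-GABP-OE libraries lay above db/m-veh for 6 of 33 members (Cox5b, Cox6b1, Cox7a1, Cox7c, Uqcr11 and Uqcrq), or 18.2%, against 30.4% of all genes. After rescaling this held for Uqcr11 and Uqcrq, 2 of 33, against 9.72%. The members' median differed from that of all genes by 0.008. 

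Cell markers differed beside these values. The 6 leukocyte genes, all above 0 in every group, summed to 53.1 to 108 FPKM in db/m-GABP-OE and 7.04 to 13.1 in db/m-veh. The 5 endothelial genes summed to 119 to 185 and 66.8 to 83.8, and the 6 genes of the thick ascending limb, a mitochondria-rich segment, to 189.8 to 213 and 95.7 to 119. None of these sums overlapped between the groups on either scale. The endothelial sum was weighted to Plvap, and the thick ascending limb sum to Slc12a1 and Umod. Rescaled means of Kdr (3.64 in db/m-veh and 3.22 in db/m-GABP-OE) and Ehd3 (8.57 and 6.55) were lower. So were those of Cldn16 (2.58 and 2.00) and Cldn10 (10.2 and 9.45) of the thick ascending limb. The other genes of both lists had higher rescaled means. The part of these cell types in the members' values was not tested.

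The third comparison sets the libraries labelled db/db-GABP-KD beside those of db/db-veh, which also serves as one arm of the first comparison, just as db/m-veh serves both the first and the second. All 33 members had higher fitted values, as did 86.4% of all genes, and the members' median log2 difference was 0.69 against 0.42. After the median of ratios it was 0.22, with 25 higher and 8 lower. All 13 oxidase subunit genes lay above the all-gene median, with a median of 1.21, and complex II had 0.51. After rescaling these were 0.62 and -0.087.

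Uqcr11 measured 151, 51.1 and 59.0 FPKM in db/db-GABP-KD, against the db/db-veh values of 21.4, 6.88 and 42.4, without overlap on either scale. Its log2 difference was 2.02 ± 0.56 (SE, adjusted p = 0.337, limma). Uqcrq, at 23.8, 11.3 and 52.4 FPKM in db/db-veh and 187, 58.8 and 70.9 in db/db-GABP-KD, had 1.90 with no overlap on either scale. Cox6a1 was at 649, 70.0 and 103 FPKM, against 49.4, 29.6 and 129 in db/db-veh, and the groups overlapped, with db/db-GABP-KD 1 far above all others. Its log2 difference was 1.53 ± 0.74 (SE, adjusted p = 0.348, limma).

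Sdhc, at 39.1, 16.7 and 18.2 FPKM, had a log2 difference of 0.69 ± 0.43 (SE, adjusted p = 0.393, limma). Cycs, at 56.6, 13.2 and 17.1 FPKM, had 0.57 ± 0.51 (SE, adjusted p = 0.510, limma), which turned to -0.021 after the median of ratios. Both overlapped db/db-veh, with db/db-GABP-KD 1 alone above it. Cox11, at 2.58, 1.97 and 0.4997 FPKM, had 0.91 ± 0.44 (SE, adjusted p = 0.348, limma), and db/db-GABP-KD 3 lay inside the db/db-veh range.

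Cox4i1 (chr8:120668222-120674207), the regulatory subunit 4 of the oxidase and a known GABP target, showed the same dependence on 1 library. Its FPKM was 60.5, 52.6 and 112 in db/m-veh, 32.7, 20.3 and 45.5 in db/db-veh, 110.3, 159.6 and 119.8 in db/m-GABP-OE and 263, 40.8 and 45.05 in db/db-GABP-KD. Library db/db-GABP-KD 1 was the highest of all 12, while the other libraries of its group lay inside the db/db-veh range. Cox5b measured 84.1, 45.4 and 77.99 FPKM in db/m-veh, 20.9, 6.38 and 53.8 in db/db-veh, 92.1, 165 and 135 in db/m-GABP-OE and 113, 33.5 and 39.1 in db/db-GABP-KD. All db/m-GABP-OE values exceeded all db/m-veh values as deposited, and its db/db-GABP-KD libraries overlapped db/db-veh.

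limma called 0 of 33 members, against 0% of all genes as deposited and 0.0388% after the median of ratios, and voom also called 0. At an unadjusted p under 0.05, 11 of 33 members were higher, against 13.7% of all genes, and after rescaling 3 against 2.88%. All 3 db/db-GABP-KD libraries lay above db/db-veh for 8 of 33 members, or 24.2%, against 17.3% of all genes, and after rescaling for Uqcr11 and Uqcrq, 2 of 33 or 6.06%, against 4.63%. The members' median minus that of all genes was 0.27. It was 0.19 without db/db-GABP-KD 1 and 0.074 without db/db-veh 2 as well.

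Several marker sums differed beside these values. The 5 endothelial genes summed to 26.6 to 56.4 FPKM in db/db-veh and 62.2 to 106 in db/db-GABP-KD, the 6 leukocyte genes to 7.56 to 11.03 and 13.4 to 57.0, and the 4 podocyte genes to 3.48 to 8.55 and 9.84 to 33.1, none with overlap. All genes of these lists were above 0 in both groups. After rescaling the podocyte sums, 6.59 to 10.6 and 11.1 to 19.3, did not overlap, and the endothelial and leukocyte sums did. The endothelial sum was weighted to Plvap, at mean FPKM of 32.3 and 65.5, while Cdh5 stood at 3.17 in both groups. Rescaled means of Pecam1 (4.91 and 4.59), Kdr (2.98 and 2.43) and Cdh5 (3.93 and 2.64) were lower in db/db-GABP-KD. Those of Plvap (42.3 and 57.6) and Ehd3 (5.57 and 6.17) were higher. The 6 thick ascending limb genes summed to 47.6 to 139 FPKM in db/db-veh and 27.0 to 53.1 in db/db-GABP-KD, with overlap, and after rescaling to 89.9 to 149.9 and 24.3 to 57.9, without. That sum was weighted to Slc12a1, at rescaled means of 69.7 and 13.9. Umod, Egf, Kcnj1 and Cldn16 also had lower rescaled means, and Cldn10 a higher one (3.50 and 3.74). Red blood cell genes overlapped as deposited, and after rescaling summed to 254 to 410.1 and 37.0 to 155, without overlap. The part of these cells in the members' values was not tested.

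The difference between the overexpression and knockdown effects was tested as an interaction, which uses all 4 groups and so shares its libraries with the comparisons above. The members' median was -0.47, against -0.049 for all genes, and the difference of these medians was -0.42, or -0.03 without db/db-veh 2 and db/db-GABP-KD 1. limma called 0 of 33 members, against 0.132% of all genes, and voom also called 0, while 1 member, Cox5a, had an unadjusted p under 0.05, as did 5.44% of all genes. Cox5a, the matrix-side subunit 5A, measured 1.87, 4.33 and 3.31 FPKM in db/m-veh, 2.11, 2.84 and 1.43 in db/db-veh, 2.42, 2.70 and 3.32 in db/m-GABP-OE and 7.44, 3.33 and 5.21 in db/db-GABP-KD. All 3 db/db-GABP-KD libraries exceeded db/db-veh as deposited and overlapped it after rescaling, while the db/m-GABP-OE libraries lay inside the db/m-veh range. The overexpression effect minus the knockdown effect was -1.22 ± 0.52 (SE, log2, adjusted p = 0.805, limma).

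The other members with the largest difference of effects in their role were Uqcr11 at -1.19 ± 0.80 (SE), Cox11 at -0.76 ± 0.62 (SE), Sdhd at -0.53 ± 0.69 (SE) and Cycs at -0.19 ± 0.72 (SE), each with an adjusted p of 1.00 (limma). Sdhd measured 13.5, 55.0 and 36.9 FPKM in db/m-veh, 35.5, 21.4 and 22.8 in db/db-veh, 25.6, 35.7 and 28.8 in db/m-GABP-OE and 51.8, 25.7 and 38.2 in db/db-GABP-KD. The db/m-veh libraries alone spanned the values of all the others.

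The balance between complexes was described by the summed FPKM of each. Such a sum is weighted to the genes with the highest FPKM and does not follow each subunit alike. In db/m-veh the mean FPKM was 265 for Cox6a1, 191 for Cox8a and 120 for Cox6b1, but 3.17 for Cox5a and 2.85 for Cox7a1. The 13 oxidase genes summed to 11.3, 4.05 and 6.69 times the 4 complex II genes in the db/m-veh libraries, a mean of 7.36 ± 3.69 (SD, n = 3). The ratio was 2.66, 2.87 and 5.51 in db/db-veh, a mean of 3.68 ± 1.59 (SD, n = 3), 8.501, 10.1 and 12.4 in db/m-GABP-OE, a mean of 10.4 ± 1.97 (SD, n = 3) and 11.8, 4.28 and 4.14 in db/db-GABP-KD, a mean of 6.75 ± 4.40 (SD, n = 3). This ratio does not depend on the scaling of a library. The db/db-veh and db/m-veh ranges overlapped, and so did those of db/m-GABP-OE and db/m-veh. For complex III the means were 3.94 ± 1.04 (SD, n = 3) in db/m-veh, 2.39 ± 0.522 (SD, n = 3) in db/db-veh, 4.93 ± 0.0638 (SD, n = 3) in db/m-GABP-OE and 3.96 ± 1.63 (SD, n = 3) in db/db-GABP-KD.

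**Figure D3:**
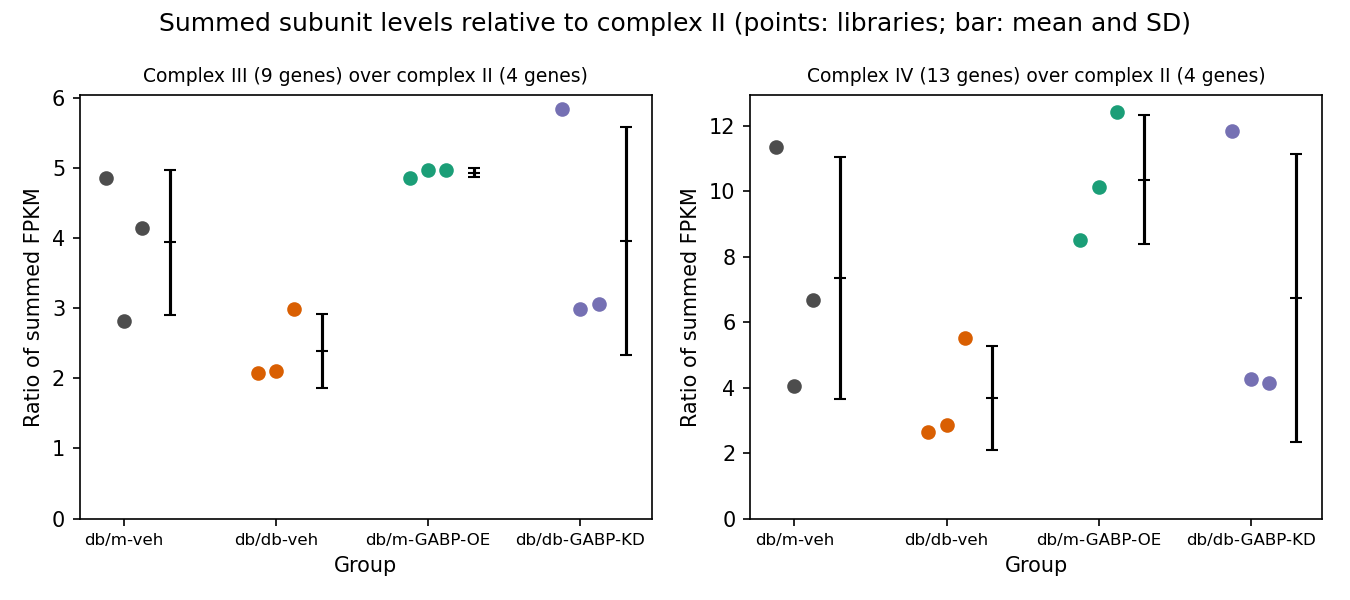
Summed FPKM of the complex III genes (left) and of the complex IV subunit genes (right) divided by the sum over the 4 complex II genes; points are libraries, and the bar beside them is the mean with its SD (n = 3). For complex IV the db/db-veh libraries run from 2.66 to 5.51 and overlap db/m-veh, and db/db-GABP-KD 1 stands at 11.8, apart from the 4.14 and 4.28 of its group.

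The members' differences were compared with the length of the coding sequence. Over the 33 members, Spearman's rho between coding length and the log2 difference was 0.61 between db/db-veh and db/m-veh, -0.50 with the overexpression label and -0.51 with the knockdown label. Over the 12872 tested genes with a coding length, rho was 0.37, -0.00023 and -0.16 in that order. These are descriptions across genes that share the same libraries. The 20 members with a coding length under 500 bases had a median log2 difference of -1.11 in the first comparison, and the 5 over 1000 bases -0.49. After rescaling these were -0.74 and -0.12.

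Other genes of short coding length had low values too. Among non-members with a mean FPKM of at least 10, the median in the first comparison was -1.07 for the 317 genes with a coding length under 500 bases and -0.36 for the 802 over 1000 bases, or -0.70 and 0.0023 after rescaling. With the overexpression label the short members and the short non-members had medians of 0.63 and 0.57, and with the knockdown label 1.17 and 1.03. After rescaling these were 0.19 and 0.14, and 0.61 and 0.45. The 802 long non-members had medians of 0.39 with the overexpression label and 0.58 with the knockdown label, or -0.031 and -0.0093 after rescaling. Length class was set after the values were seen, and its part in the members' differences was not tested beyond the centring on exon length, under which the members' median lay -0.46 from all genes in the first comparison.

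**Figure D4:**
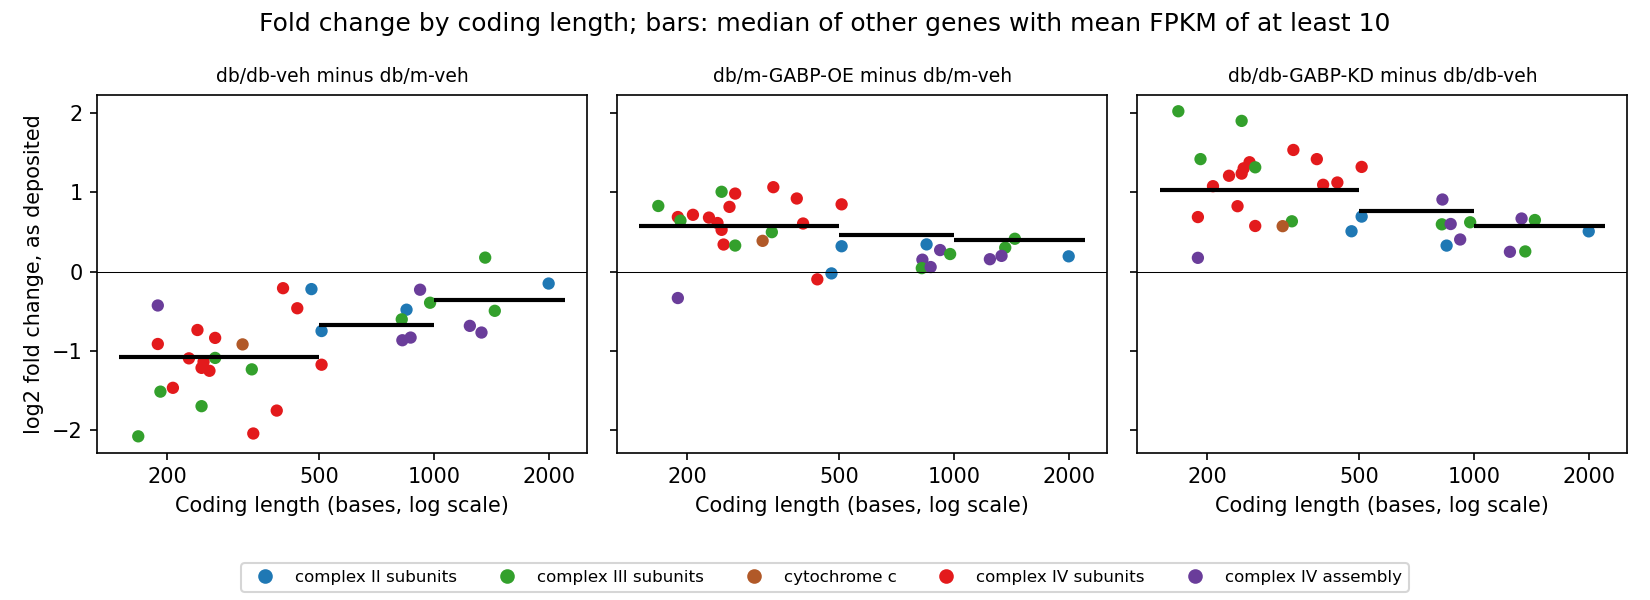
Log2 difference as deposited against coding length (log axis) for the 33 members in the 3 comparisons, coloured by role; black bars are the median of other genes with a mean FPKM of at least 10 in 3 classes of coding length. In the first panel, members under 500 bases had a median of -1.11, beside a short-gene bar at -1.07, and ran from -2.08 to -0.21. Those over 1000 bases had a median of -0.49, beside a long-gene bar at -0.36, and ran from -0.77 to 0.18.

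The mitochondrially encoded subunits of the same complexes had fitted values on both sides of 0. Between db/db-veh and db/m-veh the log2 difference was 0.30 ± 0.22 (SE) for mt-Co1, 0.028 ± 0.37 (SE) for mt-Co2 and 0.07 ± 0.47 (SE) for mt-Co3, the oxidase core, and -0.20 ± 0.24 (SE) for mt-Cytb, the complex III core, and limma called none of the 4 in any comparison. With the overexpression label these were -0.30, 0.10, -0.33 and -0.31 in that order, and with the knockdown label -0.25, -0.57, -0.15 and -0.29. After the median of ratios those of the first comparison were 0.69, 0.41, 0.45 and 0.19, all above 0, and with either GABP label all 4 were below 0.

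A list of 41 further genes of these complexes held 33 assembly factors and 8 tissue-specific isoforms, of which 35 were tested. Between db/db-veh and db/m-veh 0 were called by limma, 11 of 35 (with 11.5% of all genes) had an unadjusted p under 0.05, and the median log2 difference was -0.56, or -0.33 after rescaling. The lowest was Sdhaf4, an assembly factor of complex II named here after its value was seen, at -2.05. With the knockdown label 0 were called, 10 of 35 (with 14.3% of all genes) had an unadjusted p under 0.05, and the median was 0.55, or 0.13 after rescaling. With the overexpression label 4 of 35 (with 15.1% of all genes) had such a p, and the median was 0.23, which turned to -0.16 after rescaling. Cox8b, described next, was the 1 of 35 that limma called there, against 1.9% of all genes as deposited, and none of the others was called.

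Cox8b (chr7:140898945-140900446) encodes the form of oxidase subunit 8 found in heart, muscle and brown fat. It was at 0 in all 3 db/m-veh and all 3 db/db-veh libraries, at 1.54, 0.859 and 1.94 FPKM in db/m-GABP-OE and at 0, 0 and 0.395 in db/db-GABP-KD. These values rest on 5, 3 and 6 fragments with the overexpression label and on 1 with the knockdown label. As deposited, the db/m-GABP-OE mean of Cox8b, 1.45 FPKM, was 4.32 times a floor of 3 fragments over the db/m-veh group. After the median of ratios that mean fell to 1.11, and its ratio to a floor was not computed. The gene passed the filter only through db/m-GABP-OE, where it is high, so its values are given as a description and limma's call is no test of it. Voom on the recovered fragments did not call it.

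The brown fat markers Ucp1 and Cidea had higher values in the same libraries. Ucp1, the uncoupling protein that defines brown and beige fat, had 1.83, 2.96 and 0.783 FPKM in db/m-GABP-OE and 0.401, 0 and 0.0654 in db/m-veh, from 85 and 7 fragments. Cidea, a lipid droplet protein of brown fat, had 0.497, 1.11 and 1.04 FPKM in db/m-GABP-OE and 0.490, 0 and 0 in db/m-veh. The groups did not overlap for Ucp1 on either scale, and for Cidea they did not overlap as deposited but did after rescaling. All 5 brown fat markers were above 0 in db/m-GABP-OE and summed to 5.05 to 7.39 FPKM, against 2.96 to 3.39 in db/m-veh, where 4 of 5 were above 0 and Otop1 was at 0. The 7 adipose markers summed to 18.2 to 30.5 and 4.16 to 11.7 FPKM, with overlap after rescaling only, 6 of 7 and 5 of 7 above 0, and Adipoq and Lep at 0 in db/m-veh, and the 8 muscle markers to 0.857 to 1.44 and 0.399 to 1.03, with 6 of 8 and 4 of 8 above 0. Their part in the values of Cox8b and Cox7a1 was not tested.

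Of the other isoforms, Cox6b2, the testis form of subunit 6B, measured 7.20, 3.71 and 6.47 FPKM in db/m-veh and 2.40, 0.351 and 11.9 in db/db-veh, a log2 difference of -0.96. Cox4i2, the lung form of subunit 4, had -0.76, Ndufa4l2 -0.998 and Cox6a2, the muscle form of subunit 6A, 0.28, and limma called none of these in any comparison. Cox7b2, Cox8c and Cyct, the testis forms, were listed at 0 in every library.

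**Figure D5:**
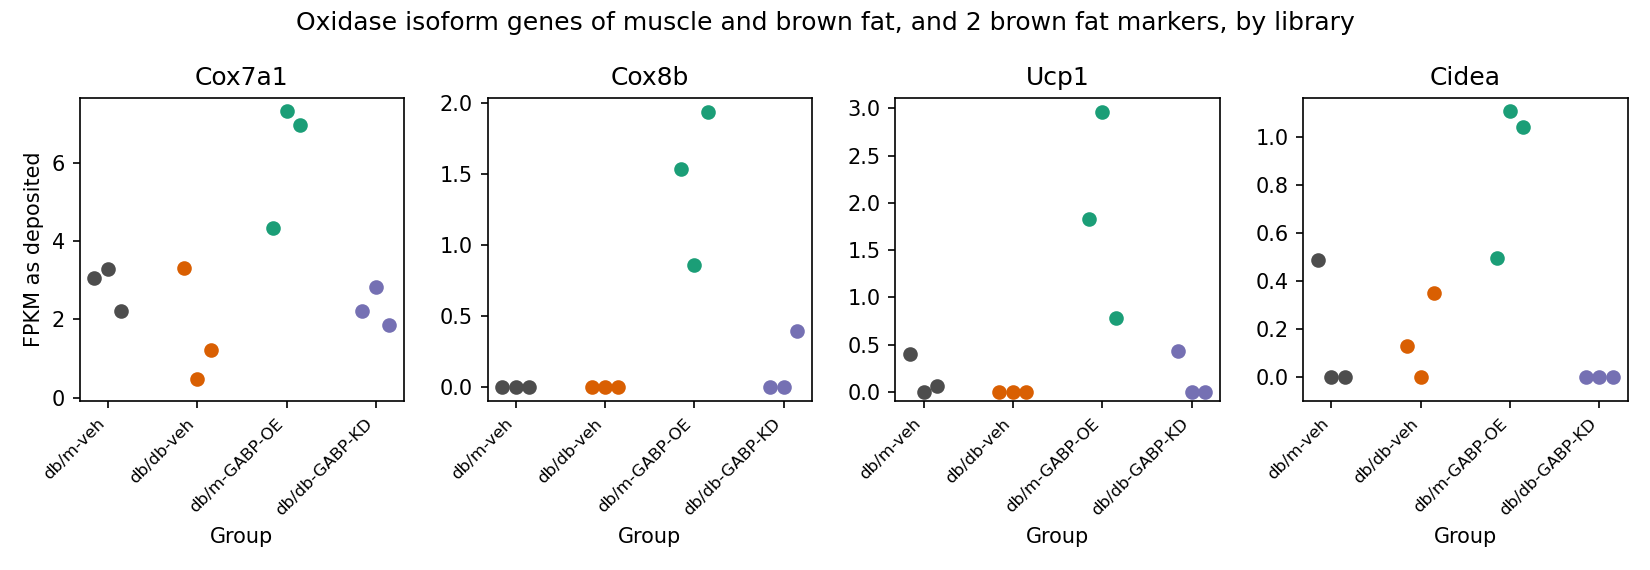
FPKM as deposited of Cox7a1, Cox8b, Ucp1 and Cidea in the 4 groups, each point 1 library. The 3 db/m-GABP-OE libraries lie above the 3 db/m-veh libraries in all 4 panels, from 0.859 to 1.94 for Cox8b, which is at 0 in both veh groups.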

How the data were processed

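RNA-seq values of 12 mouse kidney libraries were used as FPKM, the unit in which the authors deposited them in 1 table. HTSeq and the GRCm39 build are named per the submitters' processing notes; aligner, annotation and counting settings are not stated in these sources. Exon lengths of the GRCm38 annotation used here (GENCODE M21) gave whole fragments (tolerance 0.05) for 98.27% of the 21846 genes with a length, so coordinates are GRCm38.

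The members and lists were chosen with earlier results of these data known. The 12897 genes that reached 0.3 FPKM in 3 or more libraries were fitted on log2(FPKM + 0.5) with limma 3.58.1 (R 4.3.3), all 12 libraries in 1 fit with a mean-variance trend, and Benjamini-Hochberg adjustment over all genes at 0.05. Fold changes are on that scale, which understates those of low genes. Alternatives were median of ratios, nuclear-only scaling, quantile normalization, exon-length centring, voom on recovered fragments, other pseudocounts and filters, the compared groups alone, a replicate block and each library left out. Voom with median of ratios sizes, the settings without db/db-veh 2 and db/db-GABP-KD 1, and coding-length classes were chosen after seeing the data. Full statistics are given for the member with the largest absolute log2 difference in each role and for members called; Cox7a1, Cox5b, Cox4i1 and further Uqcrq values, Sdhaf4, Ucp1 and Cidea were added after seeing their values. The fit was run on simulated counts as a check of the code. These gave all libraries the same composition apart from planted differences, unlike the real libraries, so they do not show error rates here. No pair of replicates agreed within sampling noise. Copies were searched with blastn 2.17.0.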

Additional observations from a re-analysis of the deposited data

How the results depend on the processing

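No member was called by limma or voom under any of the settings run; the lowest adjusted p (limma) over them was 0.0679 between db/db-veh and db/m-veh, 0.0762 with the overexpression label, 0.244 with the knockdown label and 0.336 for the difference of effects. The members' median relative to all genes ran from -0.70 to -0.45, from -0.14 to 0.18, from 0.055 to 0.49 and from -0.53 to -0.030 in that order; the last value came from leaving out db/db-veh 2 and db/db-GABP-KD 1. With the overexpression label Sdhb turned to -0.094 with median of ratios (also without these 2 libraries), -0.14 with nuclear-only scaling, -0.18 with quantile normalization, -0.091 with length centring, -0.12 with voom and -0.10 with voom on median of ratios sizes, and Cycs in the same order to -0.046, -0.091, -0.068, -0.037, -0.066 and -0.048. With the knockdown label Cycs turned to -0.021 with median of ratios, -0.057 with nuclear-only scaling, -0.12 with quantile normalization, -0.018 with voom and -0.041 with voom on median of ratios sizes. Without the 2 libraries it was -0.36, or -0.43 with median of ratios, and over single libraries left out it ran from -0.052 to 0.98. Sdhc turned to -0.0051 with quantile normalization and -0.033 with median of ratios without the 2 libraries. For the difference of effects Cycs turned to 0.055 with quantile normalization, 0.75 without the 2 libraries and 0.38 with median of ratios as well, and ran from -0.59 to 0.44 over single libraries left out, turning without db/db-veh 2, db/m-GABP-OE 1 or db/db-GABP-KD 1; Cox11 turned to 0.098 without the 2 libraries. Between db/db-veh and db/m-veh the Gabpa ratio was 0.902 as deposited, 1.22 with median of ratios and 1.27 with nuclear-only scaling, and the Gabpb2 ratio 0.825, 1.06 and 1.11. The cause was not tested.

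With the replicate block the members' medians relative to all genes were -0.59, 0.0080, 0.27 and -0.42 and 0 members were called. Since each number occurs once in each group, the block cannot change a fitted difference, so these medians are no check on it. Whether equal numbers pair the samples is not stated and could not be decided here. Of 18 same-numbered pairs, 5 had deviations correlated over 0.1, and all 18 ran from -0.478 to 0.382. Deviations from a group's mean sum to 0 over its 3 libraries, which ties these correlations together. Over all genes limma called 12, 245, 0 and 17 as deposited, and 22, 27, 5 and 10 with median of ratios. Low depth limits Cox11, Cox17, Cox7a1 and Cox8b.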
